A study of Mus musculus with 9 samples.

Results

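Pluripotency factor genes encode the transcription factors that hold mouse embryonic stem cells in an undifferentiated state, and TWIST1 occupancy at 10 of them is described here: Pou5f1, Nanog, Tfcp2l1, Esrrb, Klf2, Klf4, Klf5, Tbx3, Zfp42 and Prdm14. They are 10 of 21887 mouse protein-coding genes, taken by name, and each ChIP-seq peak was given to the gene whose body held its summit or, outside genes, to the nearest gene within 100 kb. TWIST1 was mapped by ChIP-seq with a TWIST1 antibody after 3 days of differentiation, in cells labelled embryoid bodies (aggregates of differentiating embryonic stem cells) that the design text calls neuroepithelium. The OE cells came from the A2loxcre mouse embryonic stem cell line (strain C57BL/6 on the label), were Twist1-/- and carried a doxycycline-inducible Flag-Twist1. The KO cells were Twist1-/- without the inducible cassette. Both received doxycycline for 16 h, so both groups were null for endogenous Twist1 and the OE cells had TWIST1 from the induced transgene. Whether each line was 1 clone is not given in the sources used here. The series holds 9 libraries in 4 groups. Lists of peaks from 4 OE ChIP, 2 KO ChIP (numbered 2 and 3) and 1 KO input library were used. The input libraries of OE cells, 2 in number, were not used here. A peak list carries no expression, so the cell type on the label could not be checked against marker transcripts, and occupancy says nothing here of whether a gene was active.

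In the naive state, Pou5f1, Nanog and their partners bind each other's enhancers, and the cytokine LIF keeps Klf4, Klf5, Tfcp2l1 and Tbx3 active through STAT3 and other routes. The network is dismantled within days once cells are taken out of LIF and allowed to aggregate. TWIST1 is a bHLH factor best known in mesoderm and cranial neural crest, and bHLH dimers read the E-box, written CANNTG.

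All 10 genes had peaks in OE cells, and none had a peak in KO cells. Over the 10 genes there were 24, 129, 124 and 13 peaks in OE libraries 1 to 4, against 0 and 0 in KO libraries 2 and 3 and 1 in the KO input. The OE libraries fall into 2 sets by their background, which stands in for depth since the files hold no read totals. The background pileup recovered from the lists, the number of overlapping fragments that the caller took as background at a typical position, was 1.00 and 1.20 in OE libraries 1 and 4 and 5.38 and 5.29 in OE libraries 2 and 3. KO libraries 2 and 3 had 4.73 and 5.09, and the input had 6.46. The whole lists held 22388, 106821, 87441 and 14160 peaks in OE libraries 1 to 4, against 104 and 71 in KO libraries 2 and 3 and 1774 in the input. OE libraries 2 and 3 thus list far more peaks than OE libraries 1 and 4, and it is these whose background is near that of the KO libraries.

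With at least 1 peak, 9, 10, 10 and 9 of the 10 genes were counted in OE libraries 1 to 4, where 46.6%, 80.2%, 77.1% and 36.7% of all protein-coding genes had one. Of all genes, 0.206% had a peak in KO library 2, 0.0914% in KO library 3 and 5.15% in the input, so that 0 of 10 in KO libraries is near the background and shows nothing particular to these genes. The smallest fold enrichment over local background listed at the typical background was 3.66 in KO library 2 and 3.61 in KO library 3. Above both lay 24, 99, 91 and 13 of the peaks in OE libraries 1 to 4, at 9, 10, 10 and 9 of the genes. In OE libraries 1 and 4 these were all of the peaks. The smallest folds listed there at the typical background were 4.00 and 4.09, so this limit could hardly remove a peak. Folds of different libraries are not on a common scale, and the share of all genes above these limits was not counted. A peak in all 4 OE libraries was found for 9 of the 10 genes and 34.3% of all genes, and with none in KO ChIP for 9 and 34.2%. With none in the input either, it was 8 of the 10, without Tbx3, and 30.7% of all genes. Prdm14 lacked a peak in OE libraries 1 and 4. All 10 genes had peaks in both OE libraries 2 and 3, as did 75.2% of all genes.

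Peak counts of OE and KO libraries were set against each other gene by gene, as mean log2(peaks + 1), by an exact permutation test (two-sided). With 4 libraries against 2 the smallest p it allows is 0.0667, so that 0 of the 21887 genes could pass 0.05, adjusted or unadjusted. Pou5f1 and Klf4 reached the smallest exact p, 0.0667 (adjusted p 0.357 over all genes), as did 18.7% of all genes with OE higher. The exact p was 0.467 for Prdm14 (adjusted p 0.627) and 0.133 for the remaining 7 (adjusted p 0.390). The design text speaks of biological replicates, without saying which library came from which culture.

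**Figure D1:**
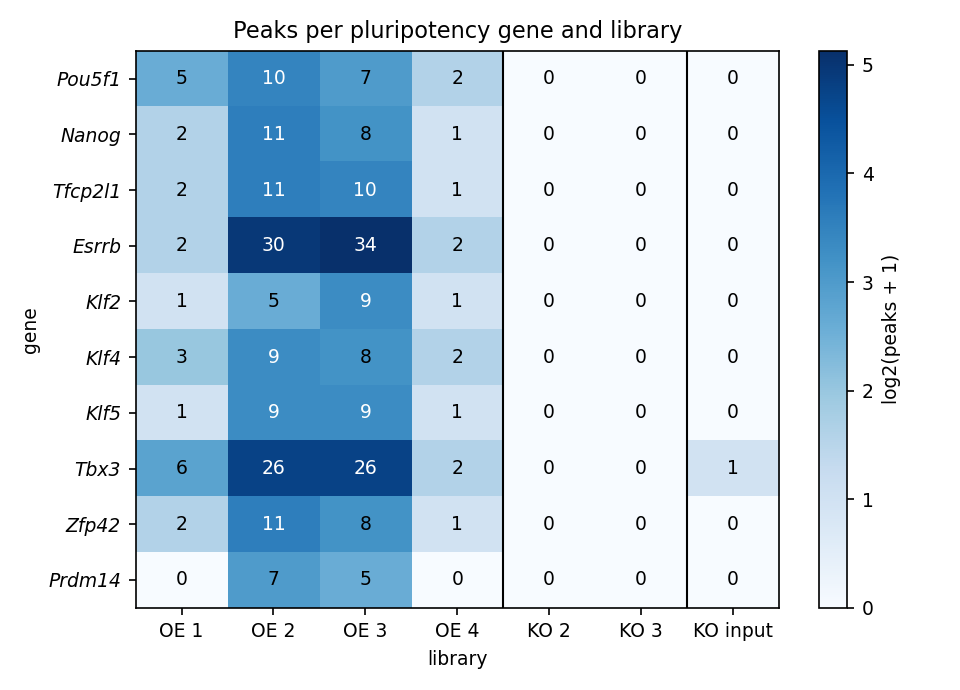
Number of peaks given to each of the 10 genes (rows) in the OE, KO and KO input libraries (columns), coloured by log2(peaks + 1). Esrrb (30 and 34) and Tbx3 (26 and 26) hold most peaks in OE libraries 2 and 3, and the KO columns hold none.

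The sites that recur across libraries are a small part of these peaks. Overlapping OE peaks (by 1 bp or more) formed 158 merged regions at the 10 genes. Of these, 18 had a peak in at least 3 OE libraries, 95 in both OE libraries 2 and 3, and 13 in both OE libraries 1 and 4. The name reproducible is kept here for those with a peak from each of the 4 OE libraries and no overlap with a KO or input peak. Such regions numbered 10, at 7 of the 10 genes: 2 each at Pou5f1, Klf4 and Esrrb, and 1 each at Nanog, Tfcp2l1, Tbx3 and Zfp42. Of all genes, 29.7% had at least 1 such region and 8.25% at least 2, which 3 of the 10 had. The median was 1 region per gene here and 0 over all genes. These genes also sit in wide stretches of genome, since the length of genome assigned to a gene had a median of 138.75 kb here and of 45 kb over all genes. At the genome-wide density of regions, that length alone gives 6.16 regions over the 10 genes. Pou5f1 departs most from its length, with 2 regions in 21.5 kb, where the density gives 0.106. Nanog had 1 in 52.0 kb (0.256), and Esrrb 2 in 272 kb (1.34). Klf2, Klf5 and Prdm14 had none.

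**Figure D2:**
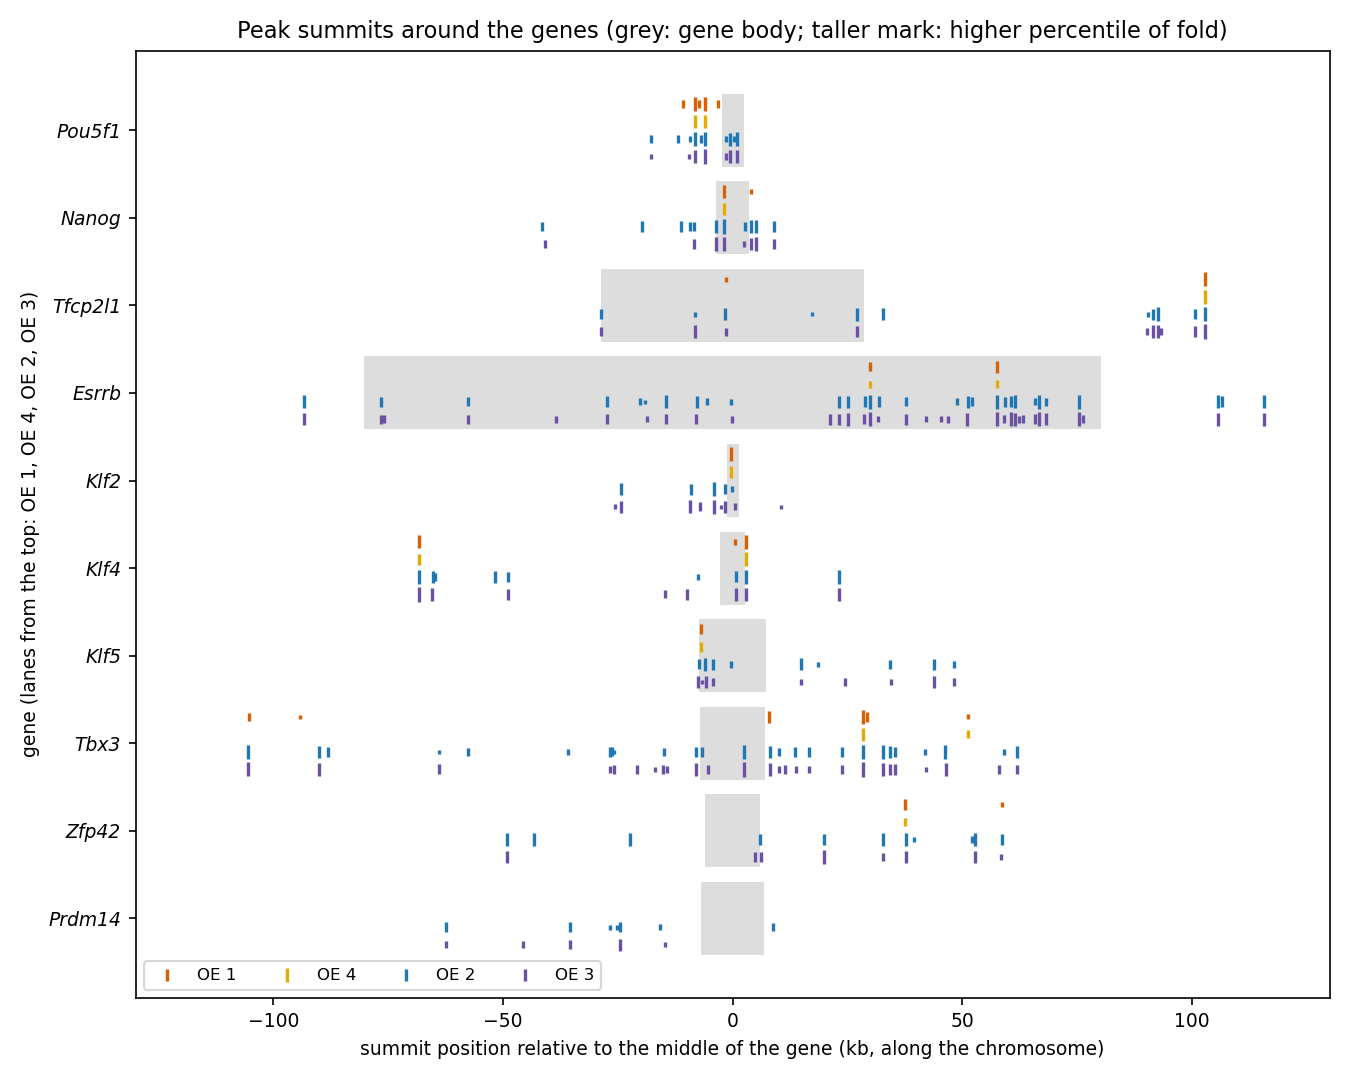
Position of each peak summit relative to the middle of the gene in kb, with lanes from the top for OE libraries 1, 4, 2 and 3 and the gene body in grey; taller marks have a higher percentile of fold within their list. The 10 regions found in every lane include those 74271 bp from Tfcp2l1 and 65580 bp from Klf4, while Prdm14 has marks from OE libraries 2 and 3 alone.

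Promoter sequence was at hand for 7 of the 10 genes (RefSeq, GRCm38.p6, from 250 bases before to 50 after a start), and whether a peak lay on it differed between libraries. In OE libraries 1 and 4 only the window of Klf4 was overlapped by a peak, and in OE libraries 2 and 3 the windows of 6 of the 7 genes were, all but Esrrb. Counted by window, since a gene can have several starts, 1, 8, 8 and 1 of the 10 windows of these genes were overlapped in OE libraries 1 to 4. None was in the KO libraries or the KO input. Among all 32851 promoter windows the shares overlapped were 16.3%, 39.1%, 40.4% and 13.0% in OE libraries 1 to 4, 0.00304% and 0% in KO libraries 2 and 3, and 1.56% in the input. The windows of Klf4, Nanog and Pou5f1 are shown because their peaks over the start had the highest folds, and that of Klf2 because it is covered in OE libraries 2 and 3 and holds no E-box. Capitals mark each CANNTG, and every sequence reads 5′ to 3′ in the direction of the gene.
Klf4 (chr4:55532426-55532725, minus strand): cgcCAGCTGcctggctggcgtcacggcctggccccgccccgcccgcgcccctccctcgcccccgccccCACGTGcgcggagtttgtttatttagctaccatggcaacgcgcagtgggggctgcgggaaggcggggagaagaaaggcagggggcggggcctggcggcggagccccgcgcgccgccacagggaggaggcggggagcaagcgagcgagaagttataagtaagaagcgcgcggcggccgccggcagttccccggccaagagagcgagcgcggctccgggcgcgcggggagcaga
Nanog (chr6:122707239-122707538, plus strand): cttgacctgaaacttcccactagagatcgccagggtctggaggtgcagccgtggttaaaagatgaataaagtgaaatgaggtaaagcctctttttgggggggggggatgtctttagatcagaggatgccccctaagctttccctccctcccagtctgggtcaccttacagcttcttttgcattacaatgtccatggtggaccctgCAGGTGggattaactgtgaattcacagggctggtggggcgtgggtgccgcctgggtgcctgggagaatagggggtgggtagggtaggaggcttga
Pou5f1 (chr17:35505782-35506081, plus strand): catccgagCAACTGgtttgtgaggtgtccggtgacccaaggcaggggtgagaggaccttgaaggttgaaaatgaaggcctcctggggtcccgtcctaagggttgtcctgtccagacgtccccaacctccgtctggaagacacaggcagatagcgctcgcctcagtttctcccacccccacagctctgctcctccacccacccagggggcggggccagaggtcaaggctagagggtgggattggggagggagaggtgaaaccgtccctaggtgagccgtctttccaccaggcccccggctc
Klf2 (chr8:72318812-72319111, plus strand): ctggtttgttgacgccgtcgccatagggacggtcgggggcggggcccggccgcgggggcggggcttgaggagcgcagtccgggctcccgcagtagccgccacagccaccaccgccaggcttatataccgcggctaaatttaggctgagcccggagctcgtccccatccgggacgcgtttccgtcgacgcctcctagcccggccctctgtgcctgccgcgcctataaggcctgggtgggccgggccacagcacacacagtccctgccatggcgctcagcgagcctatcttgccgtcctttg
In the Klf4 window there are 2 E-boxes, with the letters CAGCTG nearer its 5′ end and the letters CACGTG nearer the start. The single E-box of the Nanog window reads CAGGTG. That of the Pou5f1 window reads CAACTG, and the Klf2 window has 0. CANNTG reads the same on both strands, and 72.3% of all promoter windows hold at least 1. CATCTG or its reverse complement CAGATG was in none of the 10 windows of these genes, and in 17.2% of all windows. Pairs of CANNTG separated by 5 bases were also in none, and in 0.767% of all windows.

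The core factors come first. Pou5f1 encodes OCT4, the POU factor without which the pluripotent state is lost. Its region of highest mean fold lay before the gene (chr17:35501887-35506375). The folds there were 18.5, 73.8, 81.5 and 14.5 in OE libraries 1 to 4, at summit pileups of 36, 470, 512 and 31 fragments. OE libraries 1 and 4 listed narrow peaks with summits 3711 and 3757 bp before the start, and OE libraries 2 and 3 listed single peaks of 4481 and 4478 bp with summits 3707 and 3701 bp before it. These wide peaks run over the Pou5f1 promoter printed above, while their listed summits lie upstream of it. Each listed peak carries a single summit, so the lists do not show the signal over the promoter within these peaks. A separate small peak in OE library 1 had its summit 819 bp before the start (fold 5.99). The second region (chr17:35499988-35500552) had summits 5777 to 5792 bp before the start, within 15 bp of each other. Its folds were 31.4, 19.7, 9.85 and 20.9 in OE libraries 1 to 4, with pileups of 62, 125, 61 and 45. These folds were above those of the first region in OE libraries 1 and 4 and below them in OE libraries 2 and 3. Inside the gene, OE libraries 2 and 3 had further peaks of up to 11.8 and 12.7 fold, and OE libraries 1 and 4 had none.

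Nanog encodes the homeodomain factor that stabilises the naive state. Its region lay inside the gene (chr6:122708311-122709782), and the 4 summits fell between positions 122709108 and 122709123, a span of 15 bp. The folds were 17.1, 54.4, 28.9 and 15.1 in OE libraries 1 to 4, with pileups of 34, 346, 181 and 33. On the Nanog promoter itself OE libraries 2 and 3 had peaks of 11.4 and 21.6 fold, with summits 16 and 42 bp before the annotated start at 122707489, and OE libraries 1 and 4 listed none. The Nanog site inside the gene was thus listed in all 4 libraries, and the one at its start in OE libraries 2 and 3 alone. OE libraries 1 and 4 have the shorter lists and the lower background, and the part of depth in this was not tested.

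The naive-state factors that act beside them include the strongest region by far. Tfcp2l1 encodes a CP2-family factor of the LIF response. Its region (chr1:118758154-118760975) reached folds of 247, 837, 1002 and 163 in OE libraries 1 to 4, at pileups of 537, 5339, 6303 and 381 fragments. The summits of the 4 libraries lay within 9 bp of each other. By mean percentile of fold within the lists it ranked 32 of the 10375 reproducible regions. It lay 74271 bp from Tfcp2l1 and 74622 bp from the Hedgehog effector gene Gli2, so it is assigned to Tfcp2l1 by a narrow margin. Within the Tfcp2l1 gene itself no region was found in all 4 OE libraries. A site 27021 bp after the start had folds of 4.49 in OE library 1, 6.90 in OE library 2 and 3.81 in OE library 3. At the Tfcp2l1 start, folds were 4.70 in OE library 2 and 4.45 in OE library 3.

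Esrrb encodes an orphan nuclear receptor that can stand in for Nanog. In OE libraries 2 and 3, though not in OE library 1, it had the most peaks of the 10 genes. Its counts were 2, 30, 34 and 2 in OE libraries 1 to 4. Summits inside the gene, which is 160512 bp long, numbered 2, 26, 31 and 2, and 24 merged regions had a peak in both OE libraries 2 and 3. Of the 2 found in all 4 libraries, one (chr12:86498244-86499616) had folds of 13.8, 29.5, 46.4 and 6.92 in OE libraries 1 to 4. The other (chr12:86470608-86471636) had folds of 6.99, 26.5, 27.5 and 5.90, with summits within 24 bp. At pileups of 13 and 12 fragments in OE libraries 1 and 4, that second region was close to the smallest pileup those lists report at their background, 7 and 8 fragments.

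The Krüppel-like factors KLF2, KLF4 and KLF5 act in part redundantly, and KLF4 is one of the reprogramming factors. Klf4 had a region over its promoter (chr4:55531729-55533258) with folds of 64.4, 10.2, 11.1 and 31.3 in OE libraries 1 to 4. Here the pileups were 128, 64, 69 and 68 fragments, so that the library with the lowest background had the highest pileup. The summits lay 180 to 262 bp before the start, toward the 5′ end of the window printed above and in OE library 4 just outside it. Relative to the start, the summit of OE library 1 was at -242, the last base of the CAGCTG that begins at -247, and that of OE library 3 was at -241, beside it. The summit of OE library 2 was at -180, within the CACGTG that begins at -182. A match describes letters, not a bound site. The second Klf4 region lay 65580 bp beyond the end of the gene (chr4:55460941-55462011), with folds of 17.0, 122, 51.2 and 10.9 and pileups of 33, 775, 321 and 23. The neighbouring gene on the other side, Rad23b, was 69320 bp away. Mouse embryonic stem cells are known to use enhancers downstream of Klf4, and whether this region is one of them was not tested.

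Klf2 and Klf5 had no region in all 4 OE libraries, yet both had one in 3. Inside Klf2, the folds were 18.5, 3.13 and 11.4 in OE libraries 1, 2 and 4, with pileups of 36, 19 and 24. The summits of these overlapping peaks lay 868, 1160 and 910 bp after its start, a span of 292 bp. OE library 3 had a peak 1731 bp after the start that did not overlap (fold 3.66). Upstream of Klf2, OE library 2 had a peak 2791 bp before the start (fold 11.4) and OE library 3 one 2758 bp before it (fold 13.2). Inside Klf5, near its lower-coordinate end, the folds were 8.98, 2.70 and 9.08 in OE libraries 1, 3 and 4, with pileups of 17, 16 and 19. OE libraries 2 and 3 had stronger peaks of 11.0 and 8.10 fold farther into the gene. Within its list, the Klf2 site stood at percentiles 78.3 and 59.2 in OE libraries 1 and 4 and at 7.51 in OE library 2. The Klf5 site stood at 47.3 and 45.8 in OE libraries 1 and 4 and at 0.939 in OE library 3. Its summits also spread over 292 bp, with that of OE library 3 apart from the others. At both sites the percentiles therefore need not describe the same position.

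Tbx3, a T-box gene tied to naive pluripotency and later to limb and heart, had 6, 26, 26 and 2 peaks in OE libraries 1 to 4, against 0 in both KO libraries and 1 in the input. The input peak (fold 3.62, 36069 bp from the gene) overlapped no region described here. The region found in all 4 OE libraries (chr5:119704546-119707414) lay 21216 bp from the gene, with summits within 16 bp. Its folds were 28.4, 38.1, 32.4 and 18.6 in OE libraries 1 to 4 (29.4 ± 8.20, SD, n = 4). A site 98346 bp from Tbx3, just inside the limit of 100 kb, reached 5.99, 22.7 and 17.3 fold in OE libraries 1, 2 and 3. Inside the gene, OE libraries 2 and 3 shared wide peaks of 15.2 and 22.7 fold that OE libraries 1 and 4 did not list.

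Zfp42, also called Rex1, is a zinc finger gene used as a marker of the naive state. Its region (chr8:43338322-43339113) lay 31713 bp before the gene, with folds of 9.98, 13.6, 7.95 and 7.26 in OE libraries 1 to 4 and pileups of 19, 86, 49 and 15. Summits of OE libraries 1 and 4 fell on the same base, 43338581, and those of OE libraries 2 and 3 fell at 43338722 and 43338713. At the Zfp42 promoter, OE libraries 2 and 3 had folds of 4.86 and 4.77. Prdm14, which encodes a PR-domain protein that restrains FGF signalling and DNA methylation in naive cells, had 0, 7, 5 and 0 peaks in OE libraries 1 to 4. None of its peaks lay inside the gene, and the highest folds were 5.17 in OE library 2 and 6.67 in OE library 3. None of the other 9 genes lacked a peak in OE libraries 1 and 4.

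**Figure D3:**
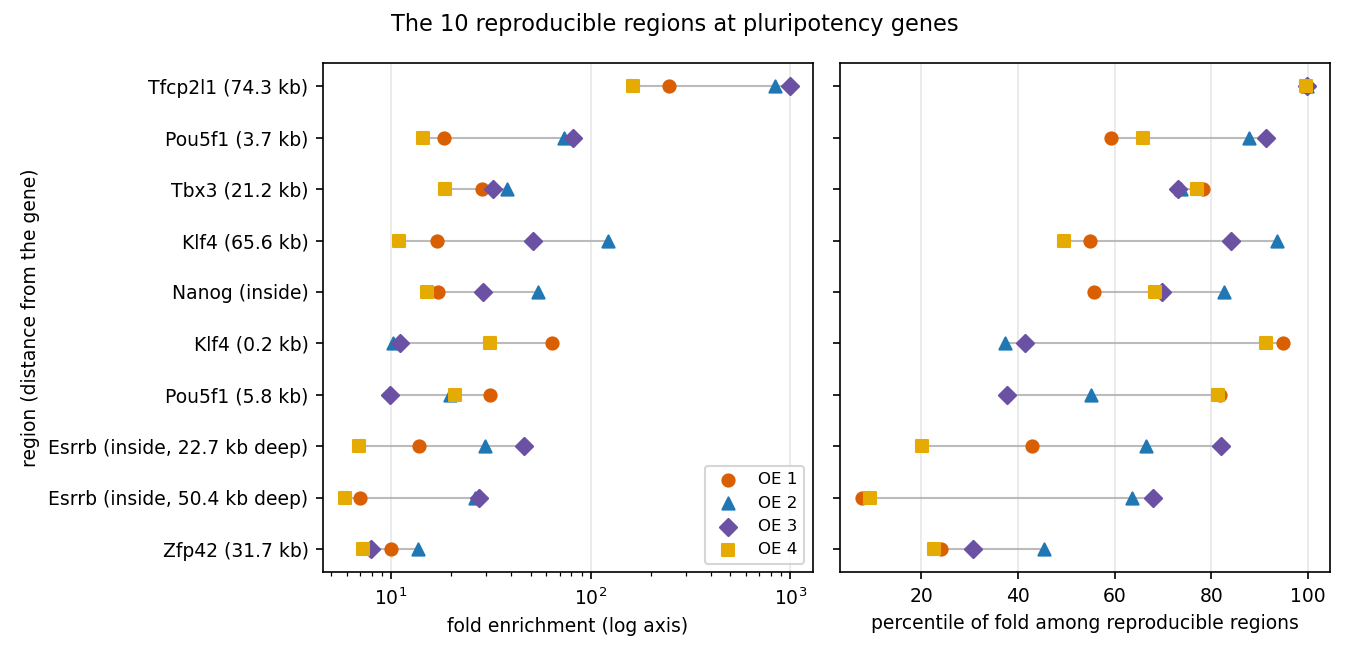
Fold enrichment on a log axis (left) and percentile of that fold among the 10375 reproducible regions (right) for the 10 regions at pluripotency genes, with a point for each OE library and a line from the lowest to the highest. Tfcp2l1 stands above the rest in every library, and the wide lines of Esrrb and of the Klf4 promoter join libraries 1 and 4 at one end to libraries 2 and 3 at the other.

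Folds of different libraries are not on a common scale, so the regions were also ranked within each library among the same 10375 reproducible regions. The region assigned to Tfcp2l1 led with a mean percentile of 99.7 ± 0.195 (SD, n = 4), and its lowest value was above every value of the other 9. Next came the Pou5f1 region 3.7 kb before the gene (76.1 ± 15.9), Tbx3 (75.6 ± 2.55), the distant Klf4 region (70.6 ± 21.6) and Nanog (69.1 ± 10.9). The Klf4 promoter had 66.2 ± 31.1 and the second Pou5f1 region 64.0 ± 21.5. Esrrb (53.0 ± 27.1 and 37.2 ± 33.1) and Zfp42 (30.7 ± 10.5) were lowest. From the second to the last, neighbours in this order differed by less than the larger SD of the pair. The SD of Tbx3, 2.55, was smaller than its difference from the distant Klf4 region. The Esrrb region at chr12:86498244-86499616 stood at 43.0, 66.6, 82.1 and 20.2 in OE libraries 1 to 4, so that its place ranged from low to high between libraries. The Zfp42 region stood at 24.0, 45.4, 30.6 and 22.5.

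Rank depended on the set of libraries. The Klf4 promoter stood at percentiles 94.9 and 91.3 in OE libraries 1 and 4, and at 37.2 and 41.5 in OE libraries 2 and 3. The Pou5f1 region 5.8 kb before the gene went the same way, with 81.9 and 81.3 in OE libraries 1 and 4 and 55.2 and 37.7 in OE libraries 2 and 3. The Esrrb region at chr12:86470608-86471636 went the other way, with 7.83 and 9.37 in OE libraries 1 and 4 and 63.5 and 68.0 in OE libraries 2 and 3. The distant Klf4 region did too, with 55.0 and 49.6 in OE libraries 1 and 4, and with 93.6 and 84.2 in OE libraries 2 and 3. Over all 10375 regions, those within 1 kb of a gene end (n = 3170) had a median difference of 32.8 percentile points, OE libraries 1 and 4 minus 2 and 3. Those farther away (n = 7205) had a median of -15.2. Only the Klf4 promoter among the 10 regions lay within 1 kb of a gene end, with a difference of 53.7. Of the other 9, Tbx3 (4.31) and the second Pou5f1 region (35.2) were above 0 and the remaining 7 below, down to -57.2 at Esrrb. These sets of libraries were defined by background and are not groups of the study, and the part of depth in this difference was not tested.

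**Figure D4:**
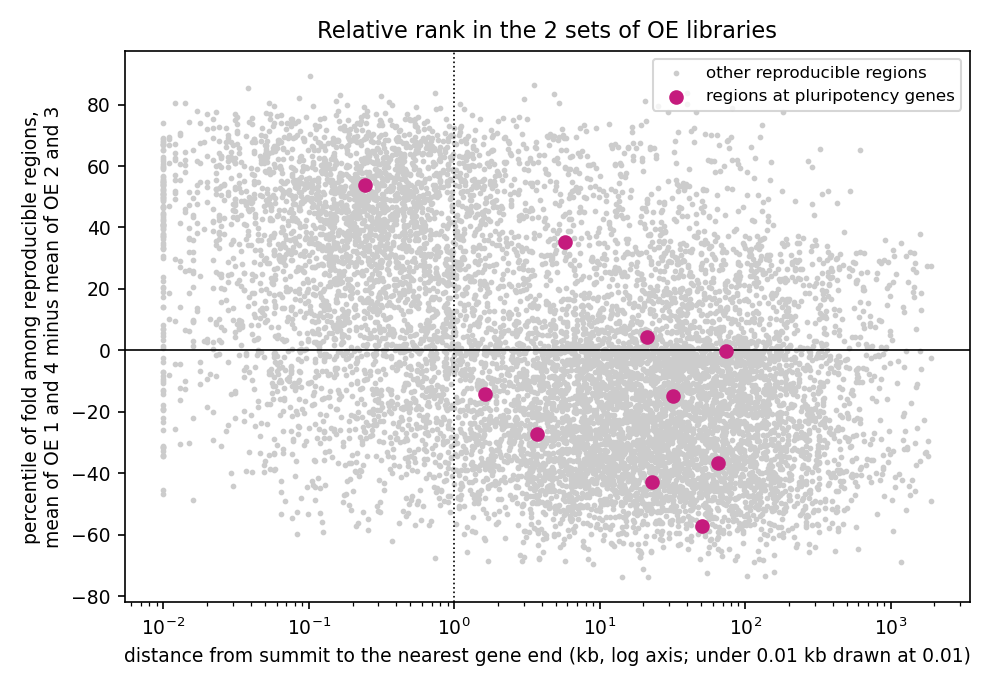
Difference in percentile of fold among the reproducible regions (mean of OE libraries 1 and 4 minus mean of OE libraries 2 and 3) against the distance from the summit to the nearest gene end in kb, on a log axis. Grey points are the reproducible regions at other genes or none, with those within 1 kb of a gene end mostly above 0; the 10 coloured points are the regions at pluripotency genes, with the Klf4 promoter at 53.7.

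Summits of the 4 libraries lay close together. The span of the 4 summits of a region had a median of 32.0 bp over the 10 regions, 87.0 bp over all 10375 and 57.0 bp over those farther than 1 kb from a gene end. It was 9 bp at Tfcp2l1 and at most 141 bp, at Zfp42. In position, 3 of the 10 regions lay inside the gene (Nanog and both of Esrrb), which is 30.0%, against 57.5% of all reproducible regions. Of single peaks, 29.2%, 33.3%, 37.9% and 38.5% of those at the 10 genes lay inside the gene body in OE libraries 1 to 4, and of all assigned peaks 62.6%, 56.8%, 56.6% and 66.3% did.

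Other genes of the pluripotency network were read from lists, with 29.7% of all genes as the background. The length of genome assigned to the genes of these lists was not taken into account in that comparison. Of 20 further core and naive factors, 11 had a reproducible region (55.0%). Highest by mean percentile of the best region were Sox2, the partner of OCT4, with a mean fold of 105 ± 87.9, and the growth factor gene Fgf4 with 122 ± 100.0 (SD, n = 4 each). Nr0b1 and Dppa2 had no region. Of 10 genes of the LIF and STAT3 route, 8 had one. Socs3, the feedback inhibitor of that route, had 7 regions, the best of them with folds of 138, 529, 524 and 90.8 at 30917 bp from the gene. Lifr, the LIF receptor gene, had 3 regions, and the best one inside the gene had folds of 55.9, 11.8, 10.3 and 47.2. Jak1 and Myc had none. Of 13 genes of the formative and primed states, which follow the naive one, 9 had a region (69.2%). Lef1, a transcription factor of WNT signalling, and Etv5, an ETS factor downstream of FGF, led by percentile, with mean folds of 61.6 ± 41.5 and 44.5 ± 19.1, and Zic2 and Sox3 had none. Among 42 paralogs of the 10 genes, 25 had a region (59.5%), and Klf1 and Klf3 had none. Klf9 and Klf11 led these by percentile, with mean folds of 90.2 ± 57.7 and 30.5 ± 16.6. The share among paralogs thus lies between those of the other lists. No gene of these 4 lists had a peak in a KO library. Of all genes 0.206% and 0.0914% had one in KO libraries 2 and 3, so this shows nothing particular to the lists.

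The genes whose best peaks had percentiles most like those of Tfcp2l1 over the 4 OE libraries, among 7511 genes with a peak in all 4, were Mterf1b, Zc3h8 and Dtl. Their distances from it were 0.0596, 0.0615 and 0.0693 percentile points. The choice by likeness places them near the top of every list. The best peaks of Tfcp2l1 are those of the region 74271 bp from it, which lies 74622 bp from Gli2. Mterf1b has a near-identical copy, Mterf1a, and how reads that match both were placed is not stated.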

How the data were processed

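TWIST1 ChIP-seq peak lists of 4 OE ChIP, 2 KO ChIP and 1 KO input library were used, grouped by sample title. Trimmomatic, BWA, Picard and MACS2 with mm10 and GRCm38.p5 are named in the submitters' processing notes. The sources used here give no versions, settings or control of the caller, all of which can change which peaks are listed. Peaks were called per library. The deposited fold enrichment, a linear ratio over local background, is the authors' value for each peak. It served to rank and describe the peaks of 1 list. Mean folds over the 4 OE libraries, with their SD, and the count of OE peaks above the KO folds join values that are not on a common scale. The deposited p-value and q-value columns are −log10 values by the authors' caller, and the deposited score was used only to check the layout.

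The analysis used Python 3.11.15, numpy 2.4.6, scipy 1.17.1 and pandas 2.3.3, with figures by matplotlib 3.10.9. Coordinates count from 1 on mm10, whose main chromosomes have the coordinates of the RefSeq table of GRCm38.p6 used for genes. Chromosomes 1 to 19, X and Y were kept. Where gene bodies overlapped, the gene with the nearer end took the peak. A merged region was placed by its summit of highest percentile. Read totals are not given, so the whole-number pileup and the background at each summit were solved from fold and p-value, within 0.02 of the deposited −log10 p plus 1e-05 of it, for at least 99.9% of the peaks of each library. The exact permutation test ran over all 21887 genes, two-sided, with Benjamini-Hochberg adjustment. Steps were tested on simulated data. Letters were counted in promoters only; sequence under the other summits was not used here. The 10 genes, the gene lists and the alternatives were chosen with earlier results of these data known. All 10 genes are named. Of each further list, the 2 genes with the highest mean percentile of their best region and the first 2 without a region are named, and the 3 genes nearest in percentile to the leading gene.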

Additional observations from a re-analysis of the deposited data

How the results depend on the processing

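The count of genes with a reproducible region was 7 (29.7% of all genes). With the share of all genes in brackets, it was 7 and 5 at limits on −log10 q of 5 and 10 (28.6% and 21.2%), 6 with summits within 100 bp (17.5%), 7 with an overlap set by the shorter peak (26.9%), 9 and 10 with at least 3 and 2 of 4 OE libraries (42.6% and 74.4%), 6 with equal list lengths (15.5%), 7 with KO and input peaks kept (31.3%), 6 within 50 kb (28.9%) and 8 with every gene within 100 kb (68.9%). The gene without a region at the 50 kb limit that had one before was Tfcp2l1. With every gene within 100 kb the 8 of 10 lie near the background. The count was 4 with a distance limit of 20 kb (27.5% of all genes) and 2 inside gene bodies alone (20.7%), since most of these regions lie outside the genes. Inside gene bodies alone the 2 of 10, like the number of regions given below, lie near the background. Numbers of regions are given with the mean per gene over all genes in brackets. The 10 regions (0.429) became 6 with the 20 kb limit (0.377), 3 inside gene bodies (0.272) and 6 with equal list lengths (0.208). They became 18 with at least 3 of 4 OE libraries (0.766) and 98 with at least 2 (3.04), where the mean over all genes rose as well. A pair of settings was added after the data were seen. OE libraries 2 and 3 gave 95 regions (2.98), at all 10 genes (73.9% of all genes). OE libraries 1 and 4 gave 13 (0.49), at 9 genes (32.7%). Leaving out 1 library gave 7 to 8 genes (29.7% to 40.3% of all genes) and 10 to 16 regions (0.429 to 0.711). The 16 regions, the 40.3% and the 0.711 came without OE library 4. The mean log2 of the peaks summed over the 10 genes, plus 1, was 5.61 higher in OE than in KO libraries, 4.02 to 6.99 over 13 alternatives and 5.14 to 6.21 without 1 library. As the KO libraries held no peak there, this value depends on the added constant. As a replicate block, the mean difference within numbers 2 and 3 was 6.99. No source says that these numbers mark a shared culture, and KO counts of 0 leave no deviations to correlate, so the numbers were not used as pairs. Of 200 counts of regions of single genes under the 20 alternatives, 145 stayed within 1.5 times the value given and 55 did not. Nanog kept a region under all 20 and Prdm14 had one under 2. At the typical background, the smallest pileups listed in OE libraries 1 and 4 were 7 and 8 fragments (folds of 4.00 and 4.09), and the smallest folds listed in OE libraries 2 and 3 were 2.51 and 2.54. The part of depth in the shorter lists was not tested.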
